A study of Mus musculus with 2 samples.

Results

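Maz and 9 genes of the Klf and Sp families were examined for binding of the transcription factor Myb in mouse hematopoietic progenitors. The 10 genes are Maz, Sp1, Sp3, Klf2, Klf3, Klf4, Klf6, Klf7, Klf10 and Klf13. A Myb peak was assigned to a gene when its summit, the position of highest signal, lay inside the gene or within 30 kb of it in GENCODE vM21. By this rule 74 of the 25793 peaks in the list belonged to the 10 genes, 6 of them to Maz and 68 to the Klf and Sp genes. The genes were chosen by values of this same peak list (the fold enrichment and position of peaks at these genes), so the number, strength and position of their peaks are a description and were not tested.

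The chromatin came from bone marrow of WT mice from which mature blood cells had been depleted (Lin– cells). There were 2 samples, both labelled WT, and the starting material was 25000000 cells at a purity above 80%. One was precipitated with an antibody against Myb and the other with normal rabbit IgG, and each is 1 library, so there is no replicate. The peaks of the Myb library were called by the authors against the IgG library, and the labels do not say whether animals were pooled. In the study's methods, WT stands for Ep300 fl/fl mice without the Mx1-Cre transgene, which received 3 doses of poly(I:C) at an age of 6 to 8 weeks, like the knockout mice. The labels give neither this allele nor the injections, and the account of the Myb ChIP does not restate them or the age at collection. For each precipitation, 1 μg of sheared chromatin (14 sonication cycles) and 1.5 μg of antibody were used, and the DNA was amplified by 12 cycles of PCR before single-end sequencing. Binding near a gene is no measure of its expression, and every value below describes this library.

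Myb is a DNA-binding activator that hematopoietic stem and progenitor cells need for self-renewal and differentiation. Klf and Sp proteins are transcription factors with a related array of C2H2 zinc fingers, through which they bind GC boxes and CACCC boxes in promoters and enhancers. Maz, the Myc-associated zinc finger protein, is a C2H2 protein outside that family that binds G-rich promoter sequence.

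The sequence under the strongest peak is shown for Maz, for Sp3 and Klf13, which came next in fold enrichment, and for Klf10, which had the fewest peaks. Each is the 101 bases of mm10 centered on the summit, read along the strand of the gene, and capitals mark a Myb motif. The Maz window is chr7:127027377-127027477 (minus strand), the Sp3 window chr2:72979085-72979185 (minus strand), the Klf13 window chr7:63939249-63939349 (minus strand) and the Klf10 window chr15:38299796-38299896 (minus strand).
Maz: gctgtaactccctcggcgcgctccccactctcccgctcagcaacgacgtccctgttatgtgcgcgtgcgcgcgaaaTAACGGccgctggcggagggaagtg
Sp3: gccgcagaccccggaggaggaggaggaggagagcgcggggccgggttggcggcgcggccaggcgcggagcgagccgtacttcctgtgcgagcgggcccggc
Klf13: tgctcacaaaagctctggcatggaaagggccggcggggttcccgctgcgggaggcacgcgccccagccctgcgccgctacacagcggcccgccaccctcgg
Klf10: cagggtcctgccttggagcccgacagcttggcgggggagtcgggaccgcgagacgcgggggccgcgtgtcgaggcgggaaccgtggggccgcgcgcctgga
All 4 windows are rich in G and C, and only that of Maz holds a Myb motif.

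The Myb motif was searched as CAACGG or CAACTG, and likewise TAACGG or TAACTG, on both strands, within 50 bp of the summit. It occurred 10 times, in 8 of the 74 peaks, as TAACTG 5 times, as CAACTG 4 times and as TAACGG only at Maz. Examples are given as 30 bases read along the strand of the motif, with the motif in capitals, because each is the one nearest to a summit among the matches of its gene. They lie at chr7:127027384-127027413 (Maz, minus strand), chr2:73003319-73003348 (Sp3, minus strand), chr8:72303793-72303822 (Klf2, minus strand), chr13:5867381-5867410 (Klf6, minus strand) and chr1:64052167-64052196 (Klf7, plus strand).
Maz: gtgcgcgcgaaaTAACGGccgctggcggag
Sp3: agatgtgccctcTAACTGgctttgaactta
Klf2: catccaagttccCAACTGtaggaggagttg
Klf6: ggcccctggaggTAACTGgataggaagcaa
Klf7: ctgaagtaagttTAACTGttgaaagttaag
The Maz motif lies 28.5 bp from the summit of the strongest peak of the whole set. The other 4 lie in weaker peaks of their genes: upstream of Sp3 and Klf2, and inside Klf6 and Klf7.

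All 10 genes had a peak at their own promoter, taken as a summit within 3 kb of one of the gene's annotated start sites. Over all 21938 protein-coding genes the share was 39.9%, and 62.8% had at least 1 peak in the gene or within 30 kb. For 9 of the 10 genes the strongest peak was at the gene's own promoter, and Klf2 was the exception. Of the 74 peaks, 35 were at the own promoter of the gene, 33 lay inside the gene, and 60 had that gene's start site as the nearest one of any protein-coding gene.

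Strength was read as the fold enrichment of the Myb signal over the local IgG background at the summit, as the authors deposited it. In that value the Myb reads are scaled by 0.769 and 1 is added to both signal and background. It is therefore not the reads divided by the background. The number of Myb reads at each summit was recovered from the fold enrichment and the p-value together, and is given with an exact Poisson 95% interval that covers counting error only. The 74 peaks had a median fold enrichment of 4.47, with a range of 2.56 to 28.0, beside a median of 4.51 over all peaks. Their median was 18.5 reads, beside 18 over all peaks, and 39 of the 74 summits (52.7%) were covered by fewer than 20 reads, beside 56.1% of all peaks. Most peaks of the set were thus of ordinary strength for this library, and the upper end of the range was set by Maz.

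**Figure D1:**
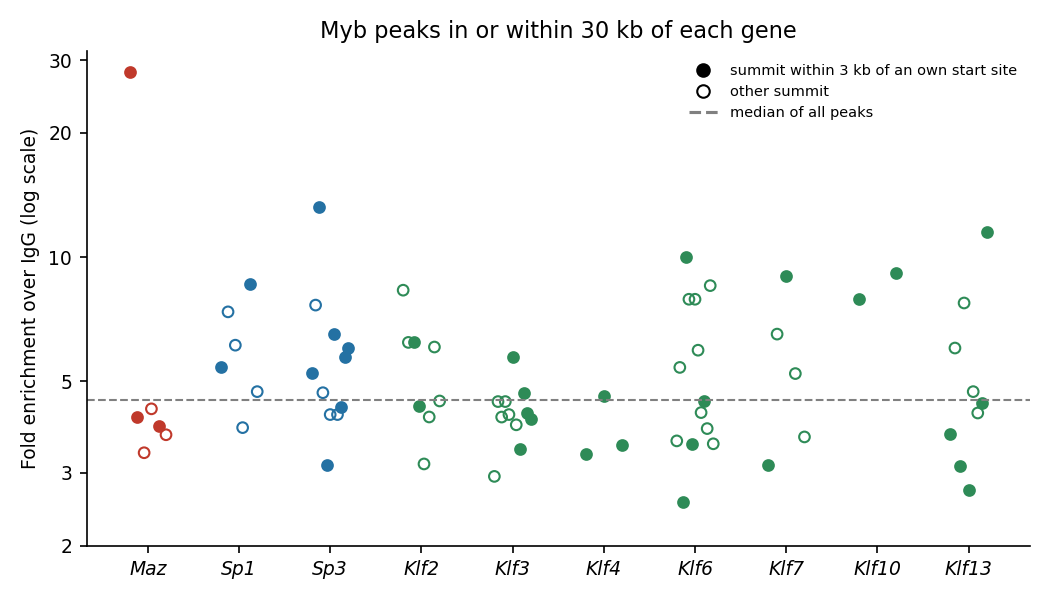
Fold enrichment over IgG of each of the 74 peaks, by gene, on a log scale; filled points are summits within 3 kb of an own start site, open points are other summits, and the dashed line is the median of all peaks. The Maz promoter peak, at 28.0, stands above the strongest peak of every Klf and Sp gene, which lay between 4.60 and 13.2.

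The strongest Maz peak spanned 1450 bp at chr7:127027021-127028470. Its summit lay 390 bp upstream of the Maz start site, in the 691 bp between Maz and the 3′ end of its neighbor Kif22, a kinesin gene on the same strand. It was also 689 bp from an annotated transcript start of Kif22, so the position alone does not assign it to Maz. At the summit there were 114 Myb reads (94.0–137), before scaling, and a background of 2.16 reads. The deposited fold enrichment was 28.0 and the −log10 q-value was 98.1. In the whole list this peak ranked 4 by fold enrichment, 4 by reads and 1 by q-value. Its fold enrichment was 6.21 times the median of all peaks.

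The other 5 Maz peaks ranged from 3.36- to 4.29-fold, below the median of all peaks. The second was covered by 21 reads (13–32.1) and lay 359 bp from the start of Pagr1a. The next, with 20 reads (12.2–30.9), lay in an exon of Maz, 58 bp from an internal Maz start site. Another, with 19 reads, lay in a Maz intron, 149 bp from another Maz start site. The remaining 2 were at neighboring genes, 74 bp from the start of Kif22 (3.71-fold) and 27 bp from that of Prrt2 (3.36-fold). Maz thus had 3 of its 6 peaks at its own start sites, and all 6 lay within 3 kb of a start site of some gene. There are 7 other protein-coding genes within 30 kb of Maz, more than for any Klf or Sp gene of the set (0 to 2).

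The strongest Maz peak had more reads than that of any Klf or Sp gene of the set. Since the genes were chosen by these values, the ratios and their intervals are a description of the library and not a test. The ratio of reads at the strongest peaks was smallest against Sp3, at 2.78 (exact conditional binomial 95% interval, 1.93–4.08), and largest against Klf4, at 8.14 (4.66–15.4). Against the best-covered Klf or Sp summit of any kind, a peak of 49 reads in an intron of Klf13, the ratio was 2.33 (1.65–3.32). These intervals cover counting error in 1 library, and variation between mice or precipitations is not in them.

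**Figure D2:**
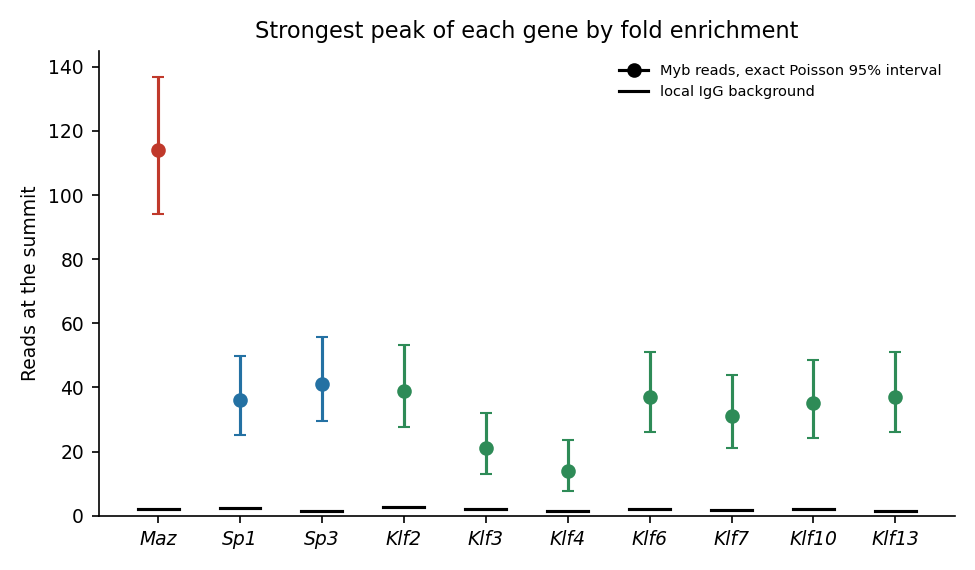
Myb reads at the summit of the strongest peak of each gene, with exact Poisson 95% intervals as error bars, which cover counting error only. Black ticks mark the IgG background of the peak call, and the Myb reads are drawn before the scaling by 0.769. Maz, at 114 reads, is the highest, and the strongest peaks of the 9 Klf and Sp genes had 14 to 41 reads.

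The reads at Maz were concentrated in 1 peak, which is again a description. Its strongest peak had 5.43 times the reads of the second (3.39–9.11), and it held 55.9% of the reads summed over the Maz summits. In each of the 9 Klf and Sp genes the same ratio lay between 0.755 (Klf13) and 1.42 (Klf6), with an interval that included 1. Among the 10321 protein-coding genes with at least 2 peaks, 18 (0.174%), Maz included, had a ratio at least as high, taking the best-covered peak against the next. These are not separate peaks throughout, since neighbors can count the same peak, as Kif22 does with the same ratio of 5.43. Klf10 also had a high share of its reads in the strongest peak, 54.7%, but it had only 2 peaks. For the other Klf and Sp genes the share ranged from 11.4% (Klf3) to 36.8% (Klf4).

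Sp1 and Sp3, the widely expressed GC-box binding factors of the set, had 6 and 11 peaks. The strongest Sp1 peak (chr15:102404819-102406314) had 36 reads (25.2–49.8) and 8.59-fold enrichment, with its summit 682 bp upstream of the Sp1 start. The second Sp1 peak had about as many reads, 37 (26.1–51.0), but lay downstream of the gene and 440 bp from the start of Prr13. The third, 28885 bp upstream of Sp1, was 6.12-fold enriched, and its nearest protein-coding start was that of Sp7. Another peak, in an intron of Sp1 and 218 bp from an own start site, was 5.42-fold enriched. Only 1 of the 6 Sp1 peaks was inside the gene.

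At Sp3 the strongest peak (chr2:72978911-72979305) was narrow, 395 bp, and was 13.2-fold enriched, the highest value of any Klf or Sp gene of the set. Its summit, with 41 reads (29.4–55.6), lay in an exon, 151 bp from a Sp3 start site. A wider peak with its summit 7 bp upstream of the Sp3 start also had 41 reads, but over a background of 4 reads rather than 1.46. Its fold enrichment was 6.51. The value of 1.46 is the lowest background in the whole list, and several peaks of the set share it. The order of these peaks by fold enrichment therefore rests on the IgG background and not on the Myb reads. The second Sp3 peak by fold enrichment, at 7.65 with 29 reads, was intergenic and 25489 bp upstream. Of the 11 Sp3 peaks, 7 lay inside the gene and 7 were within 3 kb of an own start site. One promoter peak of Sp3, at 3.14-fold and 9 reads, had a q-value above 0.05.

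Klf6, a factor active in myeloid cells, had 13 peaks, the most of the 10 genes, and 1.44% of protein-coding genes had at least as many. Its strongest peak (chr13:5860262-5865469) was 5208 bp wide, with 37 reads (26.1–51.0) and 9.99-fold enrichment at a summit in an exon, 238 bp downstream of the start. A second wide peak of 3810 bp covered much of the rest of the gene, and together the peaks covered 90.2% of the Klf6 gene body. Over protein-coding genes the median coverage was 0%, and 79 genes, Klf6 included, were covered at least as far. The next 3 Klf6 peaks, at 8.53-, 7.90- and 7.90-fold, lay at or beyond the 3′ end of the gene, 8833 to 14219 bp from the start. Upstream of Klf6, another 3 peaks lay 14993 to 16051 bp away, at 3.59- to 5.95-fold.

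Klf2, a factor known for keeping lymphocytes quiescent, had 8 peaks and 83.5% of its short gene body covered. Its strongest peak (chr8:72320180-72323376) was 3197 bp wide, with 39 reads (27.7–53.3) and 8.31-fold enrichment. The summit was 3652 bp downstream of the start site and so past the end of the gene, which is 2624 bp long. The Klf2 start site itself had a peak in exon sequence with its summit at 109 bp, with 31 reads (21.1–44.0) and 6.21-fold enrichment. The ratio of reads between these 2 summits was 1.26 (0.765–2.09), so they were not told apart at this depth. A peak of the same 31 reads and 6.21-fold lay in an intron of Eps15l1, 31786 bp from the Klf2 start, and one at 6.06-fold lay 15239 bp upstream with a Myb motif 13.5 bp from the summit.

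Klf13, which is known as a regulator of chemokine expression in T cells, had 9 peaks, of which 5 were at its own promoters. The strongest (chr7:63936021-63939872) was 3852 bp wide, with 37 reads (26.1–51.0) and 11.5-fold enrichment at a summit 384 bp upstream of the start. The best-covered summit, with 49 reads (36.3–64.8), was in an intron 41785 bp into the gene and 597 bp from the start of the noncoding transcript Gm27252. Its fold enrichment was lower, 7.74, over a background of 4 reads. Another intronic peak had 30 reads and 6.02-fold enrichment. The ratio of reads at the strongest Klf13 peak to the intronic one was 0.755 (0.479–1.18), so their order was not resolved at this depth.

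Klf10, a TGF-β–inducible repressor, had only 2 peaks, both in introns and both close to its own start sites. The strongest (chr15:38299058-38302621) was 3564 bp wide with 35 reads (24.4–48.7) and 9.17-fold enrichment, 51 bp from an internal start site. The other had 29 reads (19.4–41.6) and 7.90-fold enrichment. With a median fold enrichment of 8.53, Klf10 had the fewest peaks of the set and the highest median. Its count was ordinary among protein-coding genes, of which 47.0% had at least as many peaks.

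Klf7, known for its role in neuronal development, had 5 peaks, all inside its 92836-bp gene. The strongest (chr1:64121584-64123041) lay in an intron 279 bp from the start, with 31 reads (21.1–44.0) and 9.02-fold enrichment. The second, with 22 reads and 6.51-fold enrichment, lay 70117 bp into the gene and held a Myb motif 16.5 bp from its summit. The third, at 5.22-fold, was 4007 bp from the start.

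Klf3, a repressor with roles in erythroid and B-cell development, had 11 peaks, as many as Sp3, but none was strong. Its strongest (chr5:64804323-64805280) had 21 reads (13–32.1) and 5.72-fold enrichment in an intron, 1098 bp from the start. The next, 421 bp upstream of the start, was 4.69-fold enriched, and 2 intergenic peaks 49556 and 57891 bp downstream of the start were each 4.47-fold with 13 reads. All 11 had Klf3 as the nearest protein-coding gene, and 7 had fewer than 20 reads.

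Klf4, a factor of monocyte differentiation and of reprogramming, had the weakest signal. Its 3 peaks were all in exons near its start sites, at 4.60-, 3.50- and 3.33-fold, with 14, 10 and 14 reads. The strongest (chr4:55531552-55531845) was 294 bp wide, and its 14 reads (7.65–23.5) were covered by the intervals of the other 2 peaks. The order of the Klf4 peaks cannot be told apart from counting error.

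**Figure D3:**
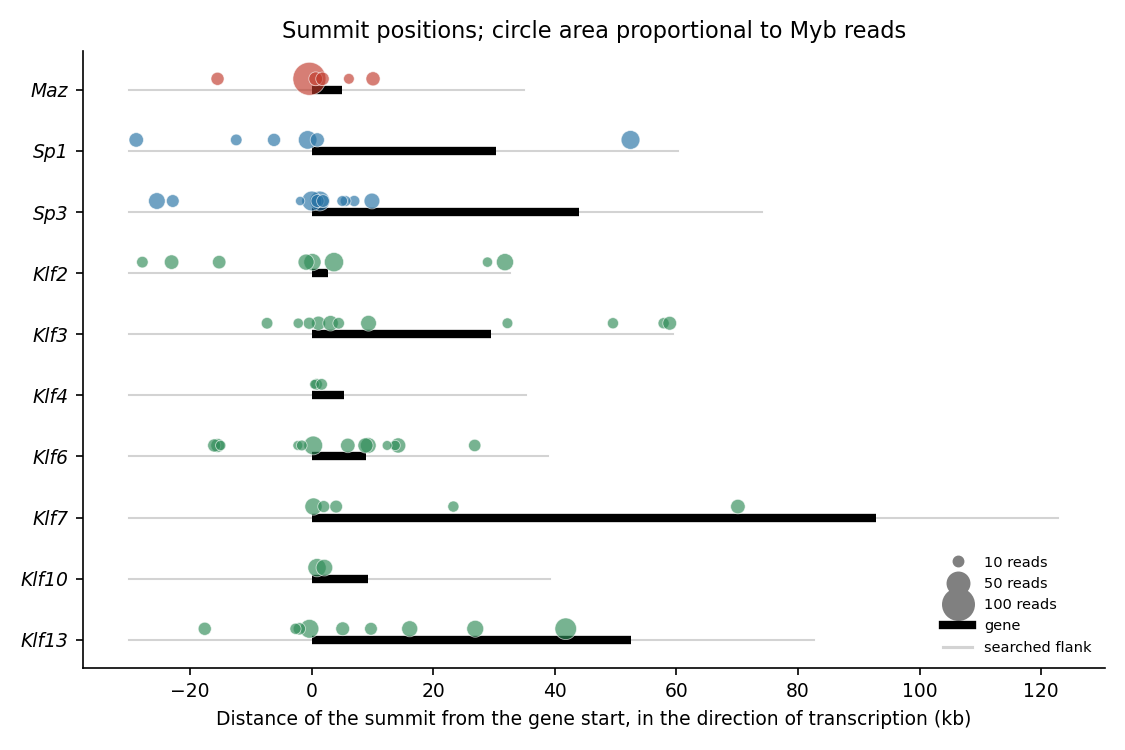
Position of each summit relative to the start of its gene, in kb along the gene's strand, with circle area proportional to Myb reads, the gene as a black bar and the searched flanks in grey. The peaks of Klf4, Klf7 and Klf10 lie inside the gene, whereas those of Klf3, Klf6 and Klf2 spread on both sides.

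The number of peaks separated the genes differently from peak strength. The Klf and Sp genes had a median of 8 peaks (range, 2 to 13), and Maz had 6. Over all protein-coding genes the median was 1, with quartiles of 0 and 4. Sp3 and Klf3 had as many peaks as the top 2.59% of genes, Klf13 as the top 4.89%, Klf2 as the top 6.70%, and Maz and Sp1 as the top 13.5%. Klf7, Klf4 and Klf10 were further down, at 18.6%, 34.9% and 47.0%. A long gene is searched over a longer stretch. Per 100 kb of gene and flanks, the density ranged from 2.89 peaks (Klf10) to 18.9 (Klf6), beside a median of 1.38.

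**Figure D4:**
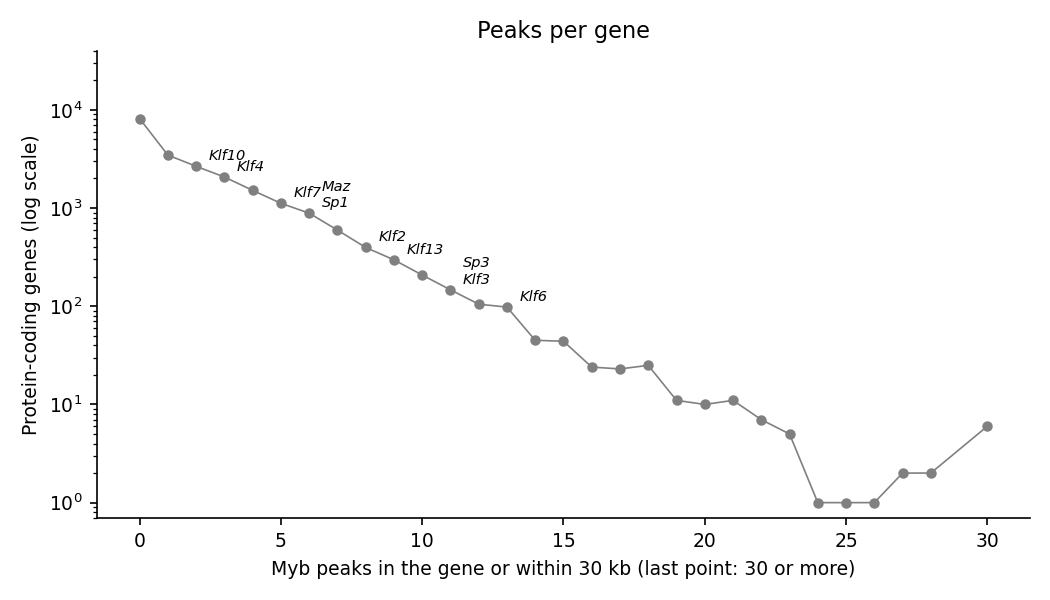
Number of protein-coding genes (log scale) by the number of Myb peaks in the gene or within 30 kb, with the 10 genes marked; the last point pools genes with 30 or more. The genes run from Klf10 with 2 peaks to Klf6 with 13, and Maz shares its count of 6 with Sp1.

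At the level of location, 42 of the 74 peaks (56.8%, exact binomial 95% interval 44.7–68.2) had a summit within 3 kb of a start site of any gene, beside 57.6% of all peaks. Another 20 were intergenic, 11 were in introns and 1 was in an exon. The share was 52.9% for the Klf and Sp genes (36 of 68) and 6 of 6 for Maz. Peaks wider than 2 kb numbered 5 of 74, with 2 at Klf6 and 1 each at Klf2, Klf10 and Klf13, beside 3.36% of all peaks. Those of Klf2, Klf10 and Klf13 and 1 of the 2 at Klf6 were the strongest of their genes. In 4 peaks, 1 each at Sp3, Klf2, Klf3 and Klf6, the q-value was above 0.05, beside 7.24% of all peaks.

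The Myb motif lay within 50 bp of 8 of the 74 summits (10.8%, 4.78–20.2), beside 16.7% of all peaks and 14.7% of all promoter peaks. The interval for the 10 genes includes both values. By gene, the motif was in 2 peaks of Klf6 and in 1 each of Maz, Sp3, Klf2, Klf3, Klf7 and Klf13, and no peak of Sp1, Klf4 or Klf10 held it. Of the 10 strongest peaks, that of Maz was the only one with the motif. A match is a description of the letters and not evidence of a bound site.

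Other motifs were counted in the same windows on both strands. The ETS core GGAAG was in 26 of 74 peaks (35.1%), beside 34.9% of all peaks, and it was also in the strongest window of Maz, Sp1, Sp3, Klf2 and Klf4. The GC box GGGCGG was in 5 peaks (all at Klf or Sp genes), beside 7.15% of all peaks. The CACCC box CCACCC was in 8, beside 8.22%. The Maz site GGGAGGG was in 2 peaks, beside 3.97%, and was in none of the strongest windows. Both peaks were assigned to Maz: the one in a Maz intron, and the one with its summit 27 bp from the start of Prrt2. The RUNX letters TGTGGT were in 4 peaks, beside 9.79% of all peaks. The AGATAA core of GATA factors was in 3, beside 8.67%.

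**Figure D5:**
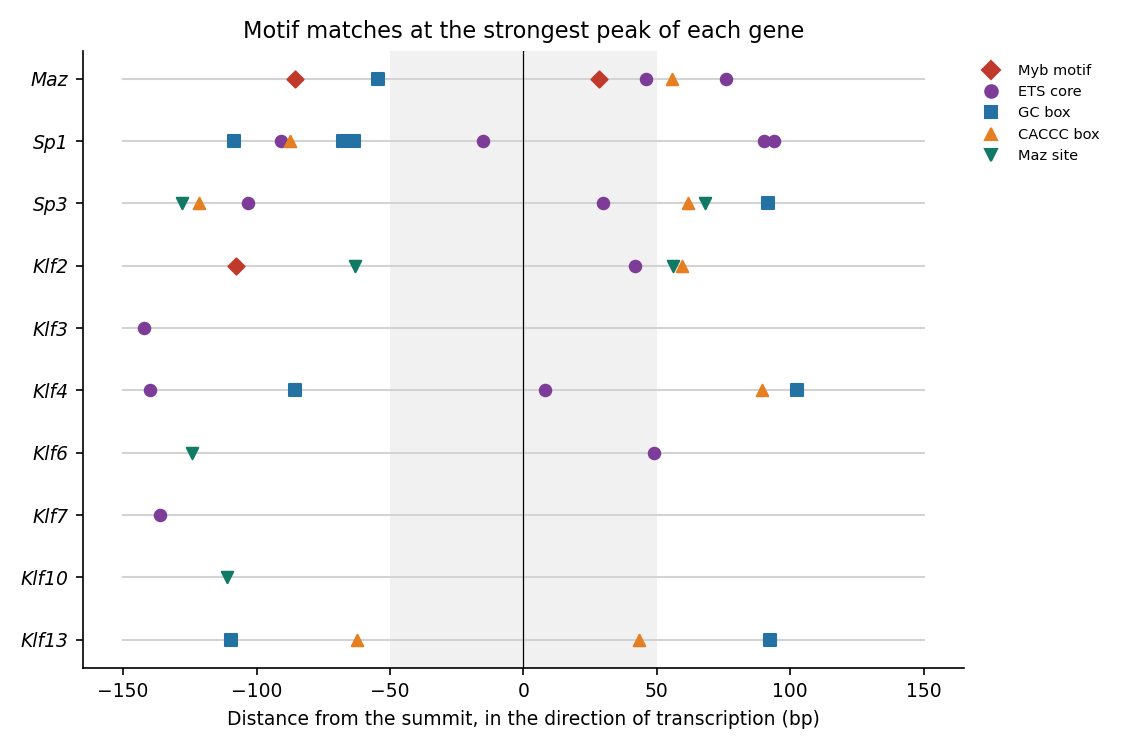
Position of motif matches relative to the summit of the strongest peak of each gene, in bp along the gene's strand; the shaded band is the window of 50 bp on either side used for the counts, in which a match had to lie wholly (the ETS match of Klf6 at its edge does not). A Myb motif falls in the band only at Maz, 28.5 bp from the summit.

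The strongest peaks lay in GC-rich sequence. The median GC content of the 101-bp window was 66.8% for the strongest peak of each gene, 51.5% for all promoter peaks and 48.5% for all peaks. The observed-to-expected CpG ratio over 301 bp had a median of 0.885 for the strongest peaks, 0.503 for all promoter peaks and 0.326 for all peaks. At Maz the values were 66.3% and 1.02. Klf2 was the only gene below the medians of all peaks, with 36.6% GC and a CpG ratio of 0.306 under its strongest summit. Klf6 came next in GC content, at 52.5%, close to the median of all promoter peaks. Klf3 came next in CpG ratio, at 0.394, below the median of all promoter peaks.

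The promoters themselves can be read for the motifs that the encoded proteins bind. RefSeq (GRCm38.p6) promoters of 300 bases, from 250 before to 50 after the start, were matched for 9 of the 10 genes, with 11 promoters in all. Klf10 was not matched. The promoters of Maz at chr7:127026956-127027255 (minus strand) and Sp1 at chr15:102406066-102406365 (plus strand) are shown, since they carry the letters bound by the family and by Maz, and capitals mark GC boxes, CACCC boxes and Maz sites on either strand, which may overlap.
Maz: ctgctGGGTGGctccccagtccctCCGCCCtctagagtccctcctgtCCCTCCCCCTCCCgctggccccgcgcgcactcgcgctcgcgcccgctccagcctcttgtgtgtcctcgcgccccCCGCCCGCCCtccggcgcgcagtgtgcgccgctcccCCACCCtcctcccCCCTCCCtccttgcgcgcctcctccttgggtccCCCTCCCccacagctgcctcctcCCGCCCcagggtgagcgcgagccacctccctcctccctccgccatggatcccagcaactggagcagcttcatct
Sp1: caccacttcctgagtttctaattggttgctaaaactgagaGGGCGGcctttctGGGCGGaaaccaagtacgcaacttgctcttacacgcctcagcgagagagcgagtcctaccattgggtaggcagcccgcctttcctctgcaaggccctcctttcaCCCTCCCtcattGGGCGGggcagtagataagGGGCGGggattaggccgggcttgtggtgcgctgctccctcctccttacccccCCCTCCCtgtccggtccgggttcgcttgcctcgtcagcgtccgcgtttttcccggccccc
This Maz promoter held 4 GC boxes, 2 CACCC boxes and 4 Maz sites, and the Sp1 promoter held 4 GC boxes and 2 Maz sites.

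Every one of the 11 promoters had a GC box (3.36 per promoter on average), beside 35.7% of the 32851 RefSeq promoters (0.765 per promoter). A Maz site was in 7 of 11 (63.6%), beside 22.0%, with 6 in 1 Sp3 promoter and 3 each in those of Klf3 and Klf7. A CACCC box was in 7 of 11, beside 31.5%. The ETS core was about as frequent as in all promoters, 72.7% beside 71.4%. A Myb motif was in 1 of 11 (9.09%), the Maz promoter printed above, beside 28.3%. That match is a CAACTG, not marked above. The summit of the strongest Maz peak and the TAACGG near it lie outside this promoter. The motifs were not compared at matched base composition.

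The rest of the family was described from a list of 17 further Klf and Sp genes. At least 1 peak within 30 kb was found for 12 of them, beside 62.8% of all protein-coding genes, and 9 had a peak at an own promoter, beside 39.9%. The strongest was at Sp2, with 43 reads (31.1–57.9) and 8.52-fold enrichment, followed by Klf16 (7.56-fold), Sp4 (6.98-fold) and Klf9 (6.12-fold). For Klf1, the erythroid factor, the strongest promoter peak had 28 reads (18.6–40.5) and was 5.64-fold enriched. It held a Myb motif, the only one of the 9 strongest promoter peaks that did. Weaker promoter peaks of these genes are not in this count. Klf5, Klf14, Klf11 and Sp9 followed at 5.01-, 4.47-, 4.20- and 4.18-fold. None of these reached the 28.0-fold of Maz.

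Peaks just inside and outside the 30-kb limit were compared by value. The outermost Maz peak was 15508 bp from the gene at 3.71-fold, and the next lay 45929 bp away at 3.63-fold. For Klf3 the limit fell between a peak at 29379 bp (4.10-fold) and one at 111778 bp (6.42-fold). For Klf2 it fell between 29163 bp (6.21-fold) and 33623 bp (2.48-fold), and for Sp1 between 28885 bp (6.12-fold) and 33995 bp (4.51-fold). For Klf13 the first peak outside was at 35393 bp (3.33-fold).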

How the data were processed

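Groups were taken from the sample titles, 1 Myb library and 1 IgG library of Lin– bone marrow cells. Per the submitters' processing notes and the study's methods, reads were trimmed with Cutadapt 1.15, aligned to mm10 with BWA 0.7.13 and freed of duplicates with Picard. Reads in the mm10 blacklist were removed, and MACS2 2.1.1.20160309 called narrow peaks of the Myb library against IgG, which were kept by overlap of pseudo-replicates (random subsets of the reads of 1 library). The study's methods give q < 0.05 for these calls, whereas 7.24% of the listed peaks have a q-value above 0.05. The deposited fold enrichment is a ratio of scaled Myb pileup to local IgG background, with 1 added to each. The deposited p-values and q-values are −log10 values. The deposited score is a rounded multiple of the −log10 p-value and was not used.

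The 10 genes and all lists were chosen with earlier results of these data known. The text names all 10 genes, the strongest peak of each in full, up to 3 further peaks by fold enrichment, the neighbor nearest to a named peak, and listed genes with a promoter peak. Peaks named beyond these were chosen after their values were seen. The results of 2 listed marker genes are not reported here. Coordinates are mm10, 1-based, with GENCODE vM21 genes (mitochondrial genes left out).

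Read totals are not in the list. Reads at each summit were recovered by solving the MACS2 fold enrichment and p-value for whole reads, with 1 scale of 0.769 for the Myb pileup. This gave whole reads in 100% of rows within 0.0005 on the −log10 p scale. After the fold was moved by a small random amount it did so in 0.977%. More than 1 read number matched in 0.0659% of rows and in 0 of the member peaks. The recovery was tested on simulated data. PCR copies are not independent molecules, so intervals (95%, exact) cover counting error only. Alternatives varied the q-value limit, the distance, the promoter window and the motif. Python 3.11.15, pandas 2.3.3, numpy 2.4.6, scipy 1.17.1, pysam 0.24.0 and matplotlib 3.10.9 were used.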

Additional observations from a re-analysis of the deposited data

How the results depend on the processing

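Maz ranked 1 of the 10 genes by strongest peak under every alternative run for it (q-value limit, distance, nearest start, and strength as q-value or reads), and the ratio of its reads to the next summit ranged from 1.81 (distance of 100 kb) to 2.78 (peaks nearest to the own start). Of the alternative values, 53 moved by less than their interval or by less than 1.5 times and 12 moved further. With −log10 q of at least 5 there were 33 peaks, with a median fold enrichment of 6.51 (6.23 over all peaks) and a median of 3 peaks per Klf or Sp gene, and 9 genes still had a promoter peak, Klf4 being the one without. With a distance of 10 kb the promoter share was 69.1% and the median was 5 peaks per Klf or Sp gene, and with 100 kb there were 119 peaks. With peaks assigned by the nearest protein-coding start the median was 5 per gene. A promoter window of 1 kb gave 37.8% (41.6% of all peaks) and one of 500 bp gave 31.1% (31.9%). The share with a Myb motif was 23.0% within 100 bp (30.0% of all peaks), 47.3% for AACNG (54.3%) and 23.0% with any base at motif position 5 (29.7%). A limit of q at most 0.05, chosen after seeing the data, left 70 peaks, and no value moved beyond these limits.

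No paired analysis was possible because there was 1 library per group, and no library could be left out. The list holds peaks only, so a gene without a peak is not shown to be unbound. With 39 of 74 summits under 20 reads, the order of peaks within a Klf or Sp gene was mostly not resolved.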

Other observations

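Other zinc finger genes whose products bind GC-rich sequence were counted in the same way. Of 9 such genes, 8 had a peak within 30 kb, beside 62.8% of all protein-coding genes. A peak at an own promoter was found for 7, beside 39.9%, with strongest promoter peaks of 5.46- to 14.1-fold. The highest was at Egr1, an immediate early gene, with 72 reads (56.3–90.7). Zbtb7a (7.51-fold), Ctcf (6.95-fold), Patz1 (6.65-fold), Zfp148 (6.60-fold), Vezf1 (6.34-fold) and Zfp281 (5.46-fold) followed. None of these 7 strongest promoter peaks held a Myb motif, beside 14.7% of all promoter peaks that did. Weaker promoter peaks of the same genes are not in this count.

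The protein-coding genes whose strongest promoter peak was nearest in fold enrichment to that of Maz were Kif22, which shares the peak, Serinc3 (26.2-fold) and Hhex (30.0-fold), a homeobox gene of early hematopoiesis. In Serinc3 and Hhex the best-covered peak had 4.5 and 5.05 times the reads of the next, beside 5.43 for Maz and a median of 1.31 over genes with at least 2 peaks.

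Marker genes were counted as a description only, since binding is no measure of expression. All 5 progenitor genes (Kit, Cd34, Flt3, Gata2, Meis1) had peaks within 30 kb, 43 in total, beside 62.8% of all protein-coding genes with at least 1. Of the 5, 4 had a promoter peak, with 8.71-fold at Kit, beside 39.9% of all protein-coding genes. Among genes of the depleted lineages, Cd3e and Ms4a1 had 1 peak each within 30 kb, neither at an own promoter, and Ly6g had 0. The 3 stromal genes (Col1a1, Lepr, Cxcl12) had 0 peaks.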
